A study of Mus musculus with 4 samples.

Results

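The receptor genes Ifnar1, Ifnar2, Ifngr2 and Il10rb lie close together on mouse chromosome 16, inside the stretch that Dp16 mice carry in an extra copy. They were picked by name and are 4 of the 19090 genes in the deposited table. Their UMI counts were read from 4 Visium brain sections, 1 for each genotype, and summed per section, per region and per plaque mark. All mice were males of 9 months, and the sections were 10 µm cryosections of hemispheres from bregma 1 to -2 mm. The 5xFAD-Dp16 mouse carried both genetic changes. The 5xFAD mouse carried mutant human transgenes that model familial Alzheimer's disease, driven by the Thy1 promoter, which is active in neurons. The Dp16 mouse carried the duplication alone, whose genes are counterparts of genes on human chromosome 21. The wild-type mouse was C57BL/6J. Only the 5xFAD-Dp16 and 5xFAD sections have spots marked as plaque. With 1 section a genotype there is no spread between animals and no test between genotypes, and every interval below is a 95% interval of counting error only.

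IFNAR1 and IFNAR2 together form the receptor for type I interferons and signal through the kinases TYK2 and JAK1 to a complex that contains STAT2 and IRF9. IFNGR2 joins the ligand-binding chain IFNGR1 in the interferon gamma receptor, which signals through JAK1 and JAK2. IL10RB is a shared chain that pairs with IL10RA for IL-10, with IL22RA1 for IL-22 and with IFNLR1 for lambda interferons. In the brain these receptors are known for their part in the responses of microglia, vessels and barrier tissues to infection and inflammation.

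In RefSeq for GRCm38 the genes follow each other in the order Ifnar2, Il10rb, Ifnar1 and Ifngr2 within 191 kb. Ifnar2 spans positions 91372783 to 91405589 of chromosome 16, and Il10rb starts 0.568 kb after its end and runs from 91406157 to 91425834. Ifnar1 spans 91485032 to 91510523 and Ifngr2 spans 91547059 to 91564007. An annotated gene, Gm36587, overlaps Ifnar2 and has no row in the files used here. The use of strand in the counting was not stated, so reads of that pair cannot be told apart. The promoter windows of 3 of the genes are shown because the 4 genes differ in where in the brain they are counted although they are neighbours. Each is 300 bases of RefSeq (GRCm38.p6), plus strand, at chr16:91372533-91372832 for Ifnar2, chr16:91484965-91485264 for Ifnar1 and chr16:91546809-91547108 for Ifngr2. Capitals mark letters that match the GAS motif TTCNNNGAA or the GC box GGGCGG on either strand.
Ifnar2: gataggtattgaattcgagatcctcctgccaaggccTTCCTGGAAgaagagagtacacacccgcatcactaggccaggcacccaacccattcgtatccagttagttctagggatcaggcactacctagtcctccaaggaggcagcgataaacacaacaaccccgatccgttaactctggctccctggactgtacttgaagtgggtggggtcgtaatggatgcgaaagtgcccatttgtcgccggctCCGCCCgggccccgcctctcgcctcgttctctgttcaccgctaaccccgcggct
Ifnar1: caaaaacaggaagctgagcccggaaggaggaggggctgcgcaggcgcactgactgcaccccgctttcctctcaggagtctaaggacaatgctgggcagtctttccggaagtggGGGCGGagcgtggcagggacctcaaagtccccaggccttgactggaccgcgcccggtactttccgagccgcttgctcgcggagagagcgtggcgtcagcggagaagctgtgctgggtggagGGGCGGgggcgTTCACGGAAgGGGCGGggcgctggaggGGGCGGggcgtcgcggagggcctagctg
Ifngr2: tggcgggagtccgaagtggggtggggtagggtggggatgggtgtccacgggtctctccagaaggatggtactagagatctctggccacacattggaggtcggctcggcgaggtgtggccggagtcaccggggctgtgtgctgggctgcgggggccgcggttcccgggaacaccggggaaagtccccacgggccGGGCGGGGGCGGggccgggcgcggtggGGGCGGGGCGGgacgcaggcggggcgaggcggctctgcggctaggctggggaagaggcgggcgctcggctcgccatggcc

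The Ifnar2 window holds 1 GAS match and 1 GC box, has 18 CpG sites and is 57% G or C. Ifnar1 holds 1 GAS match and 4 GC boxes, with 26 CpG sites and 68.3% G or C. Ifngr2 holds 0 GAS matches and 4 GC boxes, some of which lie end to end or share letters, with 31 CpG sites and 74.3% G or C. All 3 windows have more CpG sites than the median window, which has 7, and a higher share of G or C than its 52.7%. An ISRE core, searched as GAAANNGAA, is in none of the 3. Of all 32851 windows, 8.56% hold that core, 8.30% the GAS motif, 35.7% a GC box and 5.49% at least 4 GC boxes, on either strand. A match is a description and not a binding site. No Il10rb window is shown.

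Section totals were between 26049860 UMIs in 5xFAD and 36461389 UMIs in 5xFAD-Dp16, over 2347 to 2941 spots, and levels are given as CPM, UMIs scaled to 1000000 UMIs of the section. Tissue make-up differed between sections. The deposited cluster 12, highest of the 22 clusters in meningeal fibroblast markers, and cluster 13, highest in choroid plexus markers, together held 6.22% of spots in 5xFAD-Dp16, 6.01% in 5xFAD, 5.83% in Dp16 and 2.46% in wild-type. The summed level of 6 choroid plexus markers was 14752 CPM in 5xFAD-Dp16, 19343 CPM in 5xFAD, 32546 CPM in Dp16 and 6904 CPM in wild-type. Neuron markers, 7 genes, summed to between 3234 CPM in 5xFAD-Dp16 and 4208 CPM in wild-type, so brain tissue was present in each section. A spot holds parts of several cells, so fewer cells of a type and less RNA per cell cannot be told apart in any value below.

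Ifnar2, the type I interferon receptor chain with the higher ligand affinity, had 48.4 CPM in 5xFAD-Dp16 (1763 UMIs, 46.1 to 50.7) and 29.9 CPM in 5xFAD (778 UMIs, 27.8 to 32.04). It had 42.2 CPM in Dp16 (1303 UMIs, 39.9 to 44.5) and 23.1 CPM in wild-type (794 UMIs, 21.5 to 24.8). Both sections with the duplication were above both without it, and their intervals did not meet. Its partner chain Ifnar1 had 16.8 CPM in 5xFAD-Dp16 (611 UMIs, 15.5 to 18.1) and 10.7 CPM in 5xFAD (278 UMIs, 9.45 to 12.003). It had 16.6 CPM in Dp16 (514 UMIs, 15.2 to 18.1) and 13.2 CPM in wild-type (454 UMIs, 12.03 to 14.5). For Ifnar1 the 2 sections with the duplication were nearly equal and highest, and 5xFAD was lowest.

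Ifngr2, the accessory chain of the interferon gamma receptor, had 48.2 CPM in 5xFAD-Dp16 (1758 UMIs, 45.99 to 50.5) and 25.99 CPM in 5xFAD (677 UMIs, 24.1 to 28.02). It had 40.8 CPM in Dp16 (1261 UMIs, 38.6 to 43.1) and 31.7 CPM in wild-type (1089 UMIs, 29.8 to 33.6). All 4 intervals were apart from each other, with 5xFAD lowest. Il10rb, the shared chain for IL-10, IL-22 and lambda interferons, had 16.6 CPM in 5xFAD-Dp16 (605 UMIs, 15.3 to 17.97) and 11.1 CPM in 5xFAD (289 UMIs, 9.85 to 12.4). It had 15.2 CPM in Dp16 (470 UMIs, 13.9 to 16.7) and 8.41 CPM in wild-type (289 UMIs, 7.47 to 9.44). Its sections stood in the same order as for Ifnar2, with wild-type lowest.

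**Figure D1:**
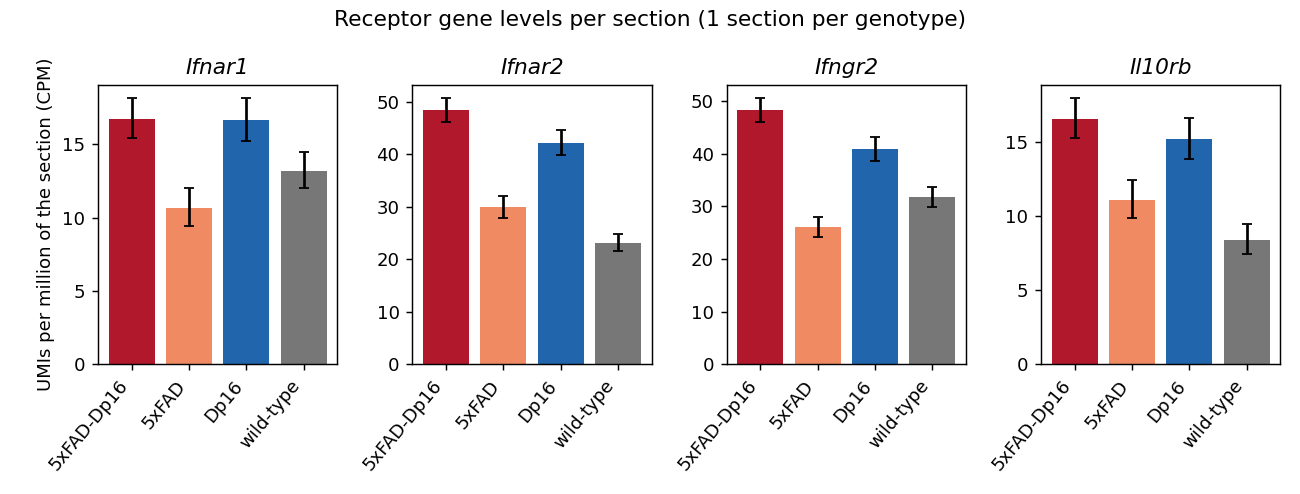
Level of each receptor gene in CPM (vertical axis, from 0, scaled per gene) in the 4 sections, with exact 95% Poisson intervals of counting error. For each gene the 5xFAD-Dp16 and Dp16 bars stand above the 5xFAD and wild-type bars, and the lowest bar is 5xFAD for Ifnar1 and Ifngr2 and wild-type for Ifnar2 and Il10rb.

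All 4 receptor genes were higher with the duplication, whether or not the transgenes were present. On the log2 scale, the ratio of 5xFAD-Dp16 over 5xFAD was 0.89 (0.76 to 1.02) for Ifngr2, 0.70 (0.57 to 0.82) for Ifnar2, 0.65 (0.44 to 0.86) for Ifnar1 and 0.58 (0.38 to 0.79) for Il10rb. The ratio of Dp16 over wild-type was 0.87 (0.74 to 1.00) for Ifnar2, 0.86 (0.64 to 1.07) for Il10rb, 0.37 (0.25 to 0.48) for Ifngr2 and 0.33 (0.15 to 0.52) for Ifnar1. All 4 were at least 25% higher in 5xFAD-Dp16 than in 5xFAD, where 2.4% of the 11033 genes that average 5 CPM or more were, and in Dp16 than in wild-type, where 5.15% were. In both pairs at once that held for 0.716% of genes. At 1.5-fold, the change in proportion to gene copies, 3 of the 4 passed in 5xFAD-Dp16 over 5xFAD (0.625% of genes) and 2 in Dp16 over wild-type (2.02%). The Ifngr2 interval lay above 1.5-fold in 5xFAD-Dp16 over 5xFAD and below it in Dp16 over wild-type.

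The median of all genes was -0.07 in 5xFAD-Dp16 over 5xFAD and -0.13 in Dp16 over wild-type. The 4 receptor genes had medians of 0.67 and 0.61 in those pairs, beside 0.42 and 0.41 for the other 67 genes of the segment at that level. Among the 71 segment genes, from the highest ratio down, Ifngr2 took place 2 in 5xFAD-Dp16 over 5xFAD and 39 in Dp16 over wild-type. Ifnar1 took places 18 and 47, Ifnar2 14 and 6, and Il10rb 27 and 7 in the same pairs. Ifngr2 and Ifnar1 thus stood higher among segment genes in the pair with the transgenes, and Ifnar2 and Il10rb in the pair without them.

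With clusters 12 and 13 left out, the Dp16 over wild-type ratio was 0.57 for Il10rb, 0.69 for Ifnar2, 0.41 for Ifngr2 and 0.34 for Ifnar1. The 5xFAD-Dp16 over 5xFAD ratio was then 0.53 for Il10rb, 0.67 for Ifnar2, 0.88 for Ifngr2 and 0.73 for Ifnar1. Counting error was passed upwards by all 4 genes in each pair, both with those spots (6.18% of all genes) and without them (6.32%). The values that moved most were those of Il10rb and Ifnar2 in Dp16 over wild-type, the pair whose choroid plexus markers differed most. Leaving those clusters out did not even out these markers. Their median ratio in that pair was 2.19 in whole sections and 2.43 without those clusters, and their part in the receptor values was not tested.

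Other genes beside the receptor genes were also higher with the duplication. Within 1000 kb on either side, 22 other segment genes averaged 5 CPM or more. Of these, 20 were higher beyond counting error in 5xFAD-Dp16 over 5xFAD, where 14.9% of all genes were, and 21 in Dp16 over wild-type, where 14.3% were, and none was lower beyond counting error in either pair. Their median ratios were 0.48 and 0.49. Their lowest and highest ratios were -0.04 (Clic6) and 0.88 (Smim11) in 5xFAD-Dp16 over 5xFAD. In Dp16 over wild-type they were 0.12 (Olig1, a transcription factor of the oligodendrocyte lineage) and 2.79 (Kcne2, a potassium channel subunit of choroid plexus epithelium). Tmem50b, the next of these genes after Ifngr2 and named here after its values were seen, had 0.67 in 5xFAD-Dp16 over 5xFAD and 0.48 in Dp16 over wild-type.

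**Figure D2:**
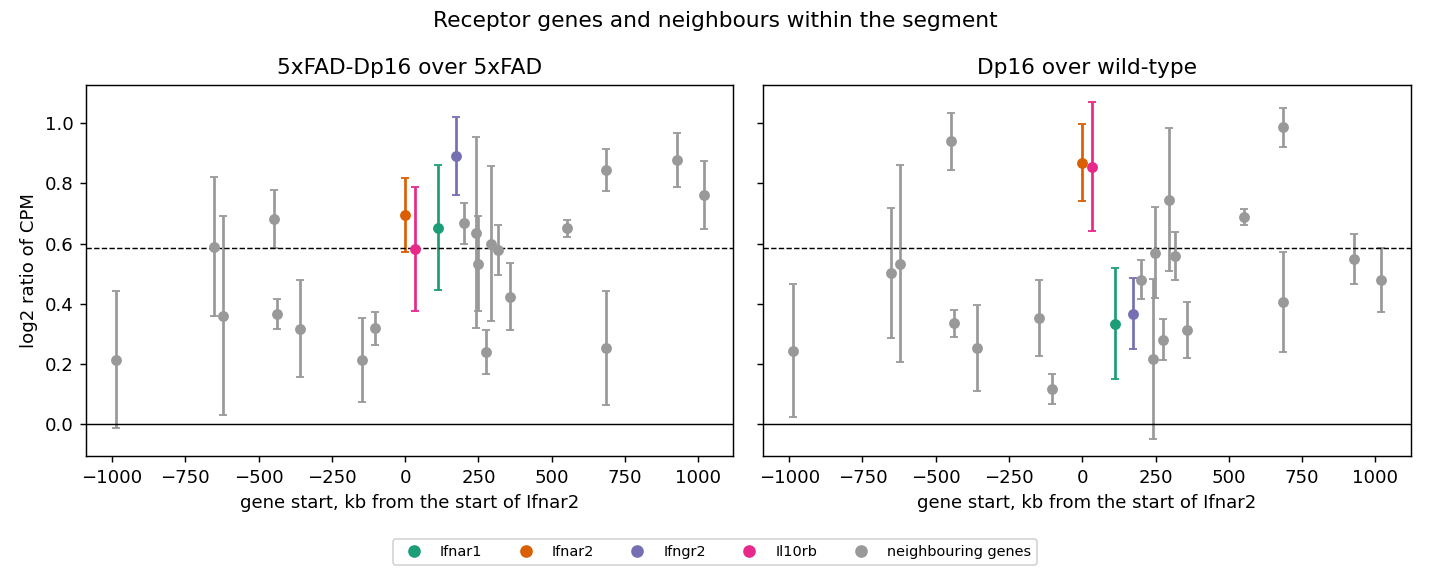
Log2 ratio of CPM (vertical axis) in 5xFAD-Dp16 over 5xFAD (left) and Dp16 over wild-type (right) against gene start in kb from the start of Ifnar2 (horizontal axis), with counting intervals. Grey points are other segment genes, Kcne2 and Clic6 are not drawn, and the dashed line is 1.5-fold. Ifngr2 lies at 0.89 on the left and 0.37 on the right, where Ifnar2 and Il10rb lie at 0.87 and 0.86.

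Between sections that differ in the transgenes, the receptor genes did not move together. The ratio of 5xFAD-Dp16 over Dp16 was 0.24 (0.13 to 0.35) for Ifngr2, 0.20 (0.09 to 0.30) for Ifnar2, 0.12 (-0.05 to 0.30) for Il10rb and 0.01 (-0.16 to 0.18) for Ifnar1. None of the 4 was 25% higher there, where 3.25% of genes were, or 1.5-fold higher (1.2%), but 2 were higher beyond counting error, where 17.8% were. The ratio of 5xFAD over wild-type was 0.40 (0.16 to 0.64) for Il10rb and 0.37 (0.23 to 0.51) for Ifnar2, but -0.29 (-0.43 to -0.15) for Ifngr2 and -0.31 (-0.53 to -0.09) for Ifnar1. Il10rb and Ifnar2 were thus higher beyond counting error in 5xFAD than in wild-type (12.7% of genes) and at least 25% higher (4.42%), with none at 1.5-fold (1.92%). Ifngr2 and Ifnar1 were lower, as were 36.6% of genes. Ifngr2 alone of the 4 passed counting error in opposite directions, as did 8.44% of genes, and Ifnar2 alone was higher in both, as were 4.61%. The 5xFAD-Dp16 over Dp16 values depended on the spots used: without clusters 12 and 13 the ratio was 0.32 (0.21 to 0.44) for Ifnar2 and 0.30 (0.09 to 0.52) for Il10rb. Choroid plexus markers had a median ratio of -1.08 in that pair in whole sections and -1.43 without those clusters. The part of tissue make-up in these values was not tested. Il10rb, at 0.34 (0.07 to 0.60) in 5xFAD over wild-type without those clusters, was then higher in both transgene pairs like Ifnar2. With every region given the same weight in each section the 5xFAD-Dp16 over Dp16 ratio was 0.39 for Ifnar2 and 0.41 for Il10rb. Microglia markers, 17 genes, summed to 1651 CPM in 5xFAD-Dp16 and 720.3 CPM in Dp16, and to 1806 CPM in 5xFAD and 832 CPM in wild-type, and their part in these ratios was not tested.

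A double difference asks whether the effects of the duplication and of the transgenes add up on the log2 scale, with positive values where 5xFAD-Dp16 is above the sum. It was 0.53 (0.35 to 0.70) for Ifngr2, 0.32 (0.04 to 0.59) for Ifnar1, -0.17 (-0.35 to 0.003) for Ifnar2 and -0.27 (-0.57 to 0.02) for Il10rb. Over all genes it had a median of 0.058 and lay between -0.41 and 0.45 for the middle 90% of them. Ifngr2 was above that range, and the other 3 genes were inside it. With regions given the same weight in each section the value was 0.59 for Ifngr2, 0.44 for Ifnar1, 0.008 for Ifnar2 and -0.04 for Il10rb, so Ifnar2 was no longer below 0.

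Chains that work together were not in one proportion in all sections. Ifnar2 made up 74.3% in 5xFAD-Dp16 (72.5 to 76.01), 73.7% in 5xFAD (70.9 to 76.3), 71.7% in Dp16 (69.6 to 73.8) and 63.6% in wild-type (60.9 to 66.3) of the UMIs of Ifnar1 and Ifnar2, with exact binomial intervals. In whole sections wild-type had the smallest share of Ifnar2, and its interval met no other. Without clusters 12 and 13 that share was 72.7% in 5xFAD-Dp16, 73.5% in 5xFAD, 68.5% in Dp16 and 63.1% in wild-type. In Hippocampus it was 76.04% in 5xFAD-Dp16, 71.2% in 5xFAD, 69.1% in Dp16 and 71.3% in wild-type, with intervals that overlapped, so wild-type was not lowest there. Ifngr2 made up 76.1% in 5xFAD-Dp16 (74.3 to 77.9), 60.02% in 5xFAD (57.1 to 62.9), 75.9% in Dp16 (73.7 to 77.9) and 68.8% in wild-type (66.5 to 71.1) of the UMIs of Ifngr1 and Ifngr2. In whole sections those with the duplication were alike in that share and above the others, and 5xFAD was lowest. FB and Thalamus also had both above the others and 5xFAD lowest. There, however, the wild-type intervals met those of all other sections, with 45.8% (38.1 to 53.7) in FB and 66.2% (60.9 to 71.2) in Thalamus. In Hippocampus the Ifngr2 share was 88% in 5xFAD-Dp16, 74.3% in 5xFAD, 89.5% in Dp16 and 86.3% in wild-type (80.9 to 90.7). That wild-type interval overlapped those of both sections with the duplication. In VL the Ifngr2 share was 32.1% in 5xFAD (9 of 28 UMIs, 15.9 to 52.4) and 31.0% in wild-type (9 of 29 UMIs, 15.3 to 50.8). The order of those sections was thus not resolved there. Il10rb made up 81.3% in 5xFAD-Dp16 (78.3 to 84.1), 76.9% in 5xFAD (72.3 to 81.03), 88.2% in Dp16 (85.1 to 90.8) and 75.9% in wild-type (71.2 to 80.1) of the UMIs of Il10ra and Il10rb, of which Il10ra, the ligand-binding chain, was below 5 CPM in each section. These shares compare sections and not the levels of different genes.

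The 4 genes had different maps of the brain. In the 12 regions with at least 30 spots in every section, the log2 ratio of regional CPM to section CPM was averaged over the 4 sections, which are of different genotypes. Region names are used as deposited. Il10rb was highest in VL, at 1.80 ± 0.24 (SD, n = 4 sections), with 61.3 CPM in 5xFAD-Dp16, 32.3 in 5xFAD, 49.5 in Dp16 and 35.8 in wild-type. FB followed at 0.42 ± 0.27, and its values did not overlap with those of VL. VL and FB were the regions where Il10rb was above the section level in all 4 sections, and Cortex OLF was lowest, at -0.70 ± 0.45.

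Ifnar2 had the same leading regions, VL at 0.90 ± 0.21 and FB at 0.66 ± 0.21, whose ranges overlapped. Its level in VL was 104 CPM in 5xFAD-Dp16, 46.6 in 5xFAD, 86.2 in Dp16 and 40.9 in wild-type. The other 10 regions ran from CNU at 0.08 ± 0.67 to Thalamus at -0.29 ± 0.37, and neighbours in that order differed by less than the larger of their SDs. Choroid plexus markers averaged 217587 CPM in VL, 24023 CPM in FB and 924 CPM in Hippocampus. Oligodendrocyte markers averaged 5089 CPM in VL, 23238 CPM in FB and 2411 CPM in Hippocampus. The part of either marker list in the maps of Ifnar2 and Il10rb was not tested.

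Ifngr2 had a different map, with VL at the bottom. Hippocampus was its highest region, at 0.70 ± 0.15, with 86.4 CPM in 5xFAD-Dp16, 45.5 in 5xFAD, 59.2 in Dp16 and 48.8 in wild-type. Cortex RSP, IL followed at 0.33 ± 0.24, with an overlapping range, and these were the regions above the section level in all 4 sections. Hypothalamus (-0.50 ± 0.15), FB (-0.56 ± 0.18), CNU (-1.02 ± 0.29) and VL (-1.21 ± 0.48) were below it in all 4. Between Cortex PTL and Hypothalamus, and between FB and CNU, the ranges did not overlap, and between all other neighbours in the order they did. Ifnar1 was above the section level in all 4 sections in FB (0.45 ± 0.10), CNU (0.40 ± 0.24) and Cortex OLF (0.25 ± 0.10), and below it in all 4 in Hippocampus (-0.18 ± 0.13). Its lowest mean was in Hypothalamus, at -0.39 ± 0.40, and all neighbours in its order overlapped.

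**Figure D3:**
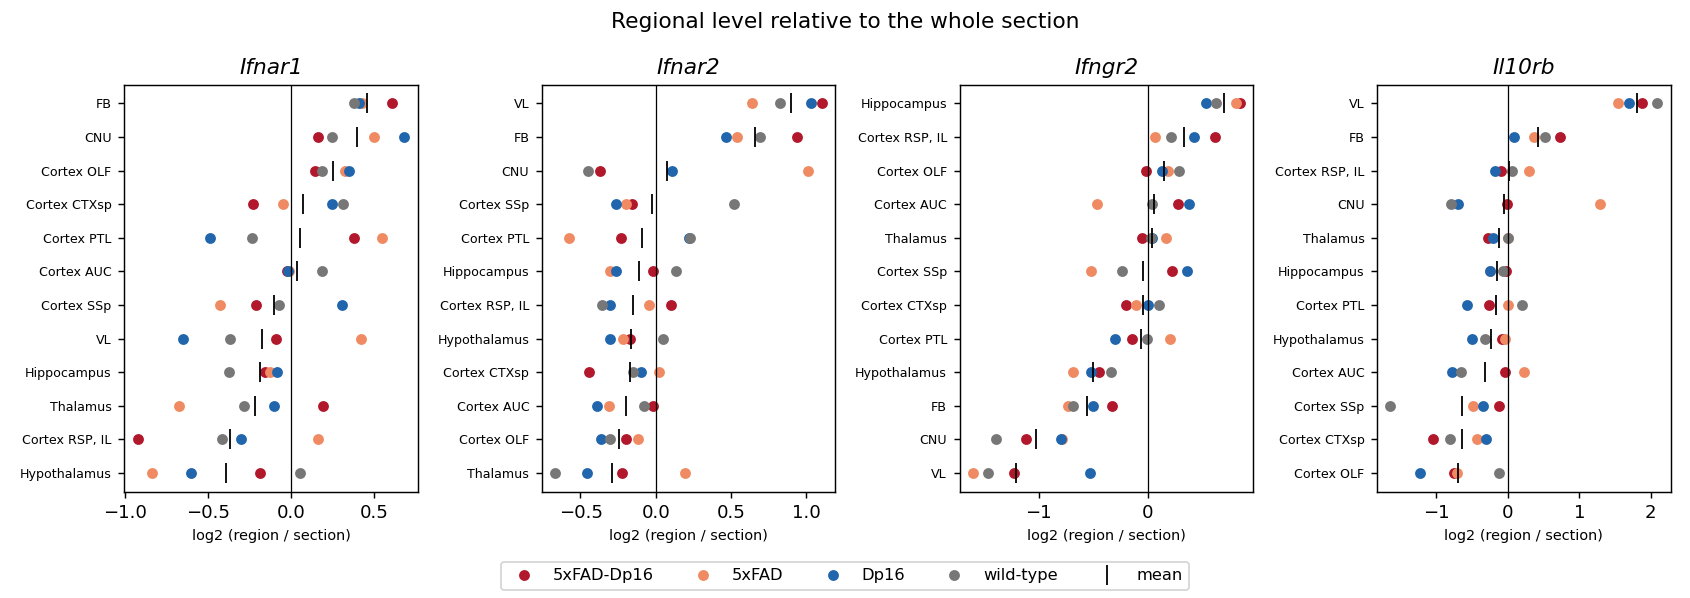
Log2 ratio of regional level to section level (horizontal axis, range set per gene) for each receptor gene in 12 regions ordered by their mean, with 1 point for each section and a black tick for the mean. VL is the top region for Il10rb (1.80) and Ifnar2 (0.90) and the bottom region for Ifngr2 (-1.21), whose top is Hippocampus (0.70).

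The higher level with the duplication was spread over the regions. The summed level of the 4 genes was higher in 5xFAD-Dp16 than in 5xFAD in 11 of 12 regions, each beyond counting error, with a median ratio of 0.88 over regions. The exception was CNU at -0.31 (-0.88 to 0.28), with 81 UMIs in 5xFAD-Dp16 and 39 UMIs in 5xFAD. It was higher in Dp16 than in wild-type in 12 of 12, each beyond counting error, from 0.28 in Hypothalamus to 1.09 in CNU, with a median of 0.56. Ifngr2 was higher in 12 of 12 regions in 5xFAD-Dp16 over 5xFAD (median 1.03), where 1.35% of genes were higher in all 12, and in 12 in Dp16 over wild-type (median 0.46), where 0.562% were. Ifnar2 was higher in 11 and 12 regions in those pairs (medians 0.79 and 0.84), Ifnar1 in 11 and 11 (0.55 and 0.40), and Il10rb in 10 and 11 (0.43 and 0.66). Few of the single regions passed counting error for Ifnar1 (4 and 1) and Il10rb (3 and 3).

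In the transgene pairs, Ifngr2 was higher in 10 of 12 regions in 5xFAD-Dp16 over Dp16 (median 0.15) but in 1 of 12 in 5xFAD over wild-type (median -0.41). Il10rb was higher in 11 and 10 regions in those pairs (medians 0.39 and 0.52), Ifnar2 in 9 and 9 (0.35 and 0.20), and Ifnar1 in 6 and 3 (-0.03 and -0.21). Fewer single regions passed counting error. Ifngr2 was higher beyond it in 1 region in 5xFAD-Dp16 over Dp16 and lower in 3 in 5xFAD over wild-type. Il10rb was higher beyond it in 3 and 2 regions, Ifnar2 in 6 and 3, and Ifnar1 in 0 and 0. Ifnar1 was lower beyond it in 2 regions in 5xFAD over wild-type. None of the 4 was higher in all 12 regions, as were 1.35% and 0.408% of genes.

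Over the 48 points of 12 regions in 4 sections, the 3 genes outside the segment most like Il10rb, among 6427 genes averaging 20 CPM or more, were Ifitm3 (Pearson r = 0.83), an interferon-induced membrane protein, 1810058I24Rik (0.83) and Trappc6a (0.83), a vesicle transport protein. For Ifnar2 they were 1810058I24Rik (0.80), Ftl1 (0.76), the ferritin light chain, and Ifitm3 (0.75). Ifnar2 and Il10rb had r = 0.75 with each other. For Ifngr2 they were Acot13 (0.80), an acyl-CoA thioesterase, Vps29 (0.77), a retromer subunit, and Polb (0.75), a DNA repair polymerase. For Ifnar1 the values were lower, with Cyb5a (0.54), Tmem219 (0.52) and Lst1 (0.52) at the top. Ifngr2 had r = 0.04 with Ifnar2 and -0.17 with Il10rb. Summed neuron markers had r = 0.53 with Ifngr2, -0.18 with Ifnar1, -0.57 with Ifnar2 and -0.66 with Il10rb. For Ifnar2 and Il10rb other cell type lists reached similar sizes. Meningeal fibroblast markers had 0.55 with Ifnar2 and 0.66 with Il10rb, and choroid plexus markers 0.56 with each and -0.45 with Ifngr2. Border macrophage markers had 0.63 with Il10rb, and smooth muscle and pericyte markers 0.62. Points of 1 section share a library and its depth, and genotype differences enter them, so these are descriptions.

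The deposited expression clusters give a finer view, as a description, since they were made from the same counts. In cluster 13, led by F5 and Kcne2, choroid plexus markers summed to 276865 CPM over all sections. Il10rb had 68.9 CPM in 5xFAD-Dp16, 37.8 in 5xFAD, 55.9 in Dp16 and 41.8 in wild-type in that cluster. Ifnar2 had 109.5 CPM in 5xFAD-Dp16, 54.9 in 5xFAD, 103 in Dp16 and 54.04 in wild-type in it. Both sections with the duplication were above the other 2 for Ifnar2 inside cluster 13, and their intervals did not meet those of the other 2. For Il10rb they were above the other 2 as well, but intervals met. That of Dp16 (46.7 to 66.3) met those of 5xFAD (28.3 to 49.4) and wild-type (28.9 to 58.4). That of 5xFAD-Dp16 (56.6 to 83.0) met that of wild-type. The share of all genes separated inside this cluster as Ifnar2 was had not been computed. Over all sections Ifnar2 was highest in cluster 11 (92.8 CPM) and cluster 13 (87.2 CPM), whose intervals overlapped, so their order was not resolved. Il10rb was highest in cluster 13 (53.3 CPM), with an interval that met that of cluster 12. For Ifnar1 the highest values over all sections were in cluster 12 (24.9 CPM), led by Cga, Prg4 and Slc22a6, and cluster 3 (22.7 CPM). Their intervals overlapped, so their order was not resolved. Oligodendrocyte markers summed to 34856 CPM in cluster 3. In cluster 12 Ifnar1 had 16.1 CPM in 5xFAD-Dp16 (13 UMIs) and 12.5 CPM in 5xFAD (5 UMIs). It had 36.8 CPM in Dp16 (27 UMIs) and 40.96 CPM in wild-type (9 UMIs) there. Cluster 12 was thus below cluster 3 in 5xFAD-Dp16 (26.7 CPM in cluster 3) and above it in the other sections. Their intervals overlapped in each section, so their order was not resolved in any of them.

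Cluster 11 lay almost wholly in the sections with plaques, with 170 spots in 5xFAD-Dp16, 131 in 5xFAD, 0 in Dp16 and 1 in wild-type. It was led by Cst7, Itgax and Ccl3, genes known from reactive microglia, and microglia markers summed to 10789.6 CPM in it. Over all sections Ifnar2 had 92.8 CPM in cluster 11 (81.7 to 104.9), an interval that met that of cluster 13 (80.0 to 94.9). In cluster 11 it had 111 CPM in 5xFAD-Dp16 (94.8 to 128) and 67.8 CPM in 5xFAD (53.5 to 84.8). Ifngr2 had 64.7 CPM in 5xFAD-Dp16 (52.8 to 78.5) and 25.5 CPM in 5xFAD (17.1 to 36.7). Il10rb had 37.1 CPM in 5xFAD-Dp16 (28.2 to 47.8) and 17.6 CPM in 5xFAD (10.8 to 27.2). For these 3 genes 5xFAD-Dp16 was above 5xFAD inside cluster 11 with intervals that did not meet. The share of all genes separated in the same way inside that cluster was not computed, so how unusual this is remains unknown. Ifnar1 had 20.1 CPM in 5xFAD-Dp16 (13.7 to 28.4) and 11.5 CPM in 5xFAD (6.10 to 19.6), with intervals that met. Ifngr2 was highest in clusters 20 (81.9 CPM), 19 (80.2 CPM) and 18 (71.9 CPM), whose leading genes include Neurod6, Fibcd1 and Prox1os, and it had 128 CPM in 5xFAD-Dp16, 72.1 in 5xFAD, 95.8 in Dp16 and 59.3 in wild-type in cluster 20.

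Plaque spots were set against unmarked spots of the same section and regions, in regions with at least 10 spots of each. That took 380 plaque and 1556 unmarked spots of 11 regions in 5xFAD-Dp16, and 310 and 1234 of 10 regions in 5xFAD. Il10rb had 19.1 CPM in plaque spots of 5xFAD-Dp16 against 13.96 CPM expected from unmarked spots, a ratio of 0.46 (0.04 to 0.86). It had 15.6 CPM in plaque spots of 5xFAD against 8.85 CPM expected from unmarked spots, a ratio of 0.82 (0.30 to 1.33). Il10rb was thus higher at plaques in both sections with this matching. Ifngr2 had 61.9 CPM in plaque spots of 5xFAD-Dp16 against 49.5 CPM expected from unmarked spots, a ratio of 0.32 (0.10 to 0.55). It had 27.3 CPM in plaque spots of 5xFAD against 20.7 CPM expected from unmarked spots, a ratio of 0.39 (0.03 to 0.75). Il10rb and Ifngr2 were the receptor genes higher beyond counting error at plaques in both sections, as were 3.53% of genes.

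Ifnar2 had 59.2 CPM in plaque spots of 5xFAD-Dp16 against 42.9 CPM expected from unmarked spots, a ratio of 0.46 (0.24 to 0.68). It had 32.7 CPM in plaque spots of 5xFAD against 26.9 CPM expected from unmarked spots, a ratio of 0.28 (-0.05 to 0.60). The Ifnar2 interval held 0 in 5xFAD. Ifnar1 had 11.5 CPM in plaque spots of 5xFAD-Dp16 against 17.7 CPM expected from unmarked spots, a ratio of -0.63 (-1.09 to -0.19), from 51 UMIs in plaque spots. It had 12.5 CPM in plaque spots of 5xFAD against 8.86 CPM expected from unmarked spots, a ratio of 0.50 (-0.06 to 1.03), from 44 UMIs. Ifnar1 was thus lower at plaques in 5xFAD-Dp16 but not in 5xFAD, and its ratio in 5xFAD-Dp16 minus that in 5xFAD was -1.12 (-1.83 to -0.41). The same difference had an interval that held 0 for Ifnar2 at 0.18 (-0.21 to 0.58), Ifngr2 at -0.07 (-0.50 to 0.35) and Il10rb at -0.37 (-1.02 to 0.29). These calls depended on how spots were matched. In regions with at least 30 spots of each kind, the Ifnar1 ratio in 5xFAD-Dp16 was -0.27 (-0.83 to 0.26), so it was no longer lower beyond counting error. With sums not matched by region, the Il10rb ratio was 0.12 (-0.24 to 0.46) in 5xFAD-Dp16 and 0.40 (-0.06 to 0.84) in 5xFAD, and that of Ifngr2 in 5xFAD was 0.28 (-0.04 to 0.60), so these 3 intervals then held 0.

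In all, 3 of the 4 genes were higher and 1 lower beyond counting error at plaques in 5xFAD-Dp16, where 10.6% of genes were higher and 8.51% lower. In 5xFAD 2 were higher and 0 lower, where 6.78% and 7.75% of genes were. Microglia markers summed to 3615 CPM in plaque spots of 5xFAD-Dp16 against 1362 CPM expected, with 16 of 16 markers higher, and to 3786 CPM in plaque spots of 5xFAD against 1369.8 CPM, with 15 of 16 higher. Their part in the receptor values at plaques was not tested. Plaque spots were above unmarked spots in 9 of 11 regions of 5xFAD-Dp16 for Ifnar2, 8 for Ifngr2, 8 for Il10rb and 3 for Ifnar1. In 5xFAD they were above in 7 of 10 regions for Ifnar2, 8 for Ifngr2, 8 for Il10rb and 6 for Ifnar1.

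Spots marked as plaque neighbours were also set against unmarked spots. In 5xFAD-Dp16 their ratios were -0.10 for Ifnar1, 0.01 for Ifnar2, 0.09 for Ifngr2 and 0.09 for Il10rb, and all 4 intervals held 0, while 11.6% of genes were higher. In 5xFAD Ifngr2 was higher in neighbours, at 0.38 (0.10 to 0.66), as were 7.32% of genes. The other ratios were 0.18 for Ifnar1, 0.18 for Ifnar2 and 0.01 (-0.50 to 0.50) for Il10rb, with intervals that held 0.

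**Figure D4:**
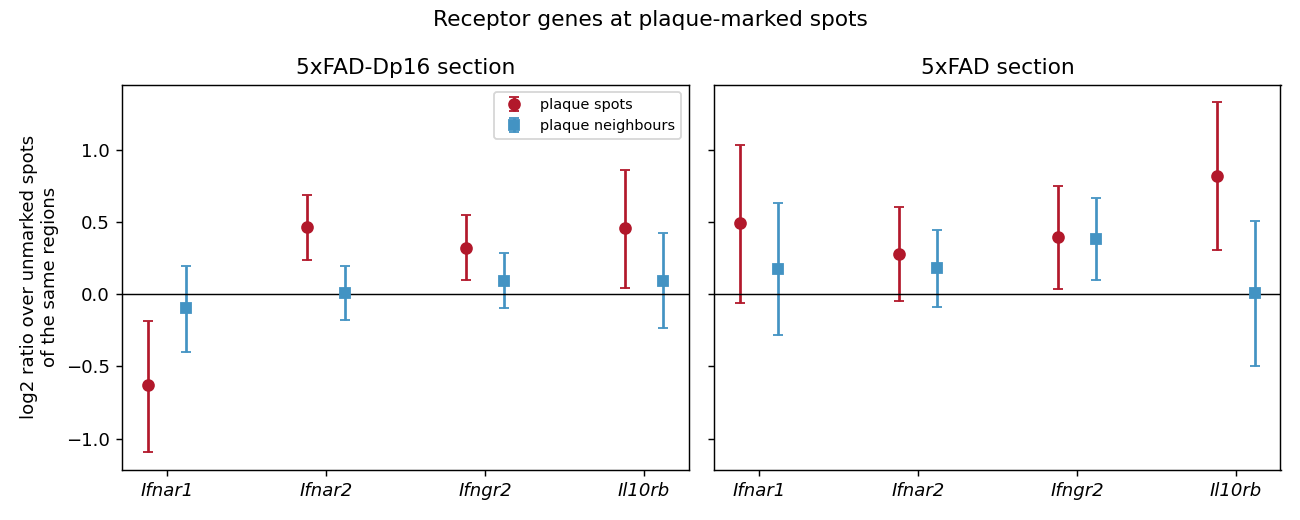
Log2 ratio of plaque spots and of plaque neighbours over unmarked spots of the same regions (vertical axis) for each receptor gene in the 5xFAD-Dp16 section (left) and the 5xFAD section (right), with counting intervals. Il10rb and Ifngr2 lie above 0 at plaque spots in both, and Ifnar1 lies at -0.63 on the left and 0.50 on the right.

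Away from plaques the genotypes also differed. The ratios in this paragraph come from sums over the section and were not matched by region. Hippocampus held 49 plaque spots in 5xFAD-Dp16 and 13 in 5xFAD, and Hypothalamus held 335 and 133 unmarked spots. The part of this regional mix in the ratios was not tested. In unmarked spots of 5xFAD-Dp16 over those of 5xFAD the ratio was 0.87 (0.60 to 1.15) for Ifnar1, 0.86 (0.68 to 1.03) for Ifngr2, 0.71 (0.55 to 0.88) for Ifnar2 and 0.55 (0.29 to 0.82) for Il10rb. All 4 were higher beyond counting error, as were 12.3% of genes. In plaque spots it was 1.12 (0.80 to 1.45) for Ifngr2 and 0.79 (0.48 to 1.10) for Ifnar2, but 0.27 (-0.23 to 0.78) for Il10rb and -0.18 (-0.77 to 0.42) for Ifnar1, so 2 of the 4 were higher, where 8.47% of genes were. In unmarked spots of 5xFAD over wild-type, Ifngr2 had -0.41 (-0.58 to -0.24) and Ifnar1 -0.41 (-0.69 to -0.14), while Ifnar2 and Il10rb were higher (12.3% of genes) at 0.33 (0.16 to 0.50) and 0.43 (0.15 to 0.71). In unmarked spots of 5xFAD-Dp16 over Dp16, Ifnar2 was higher (15.0% of genes) at 0.18 (0.06 to 0.29), and Ifngr2 had 0.08 (-0.04 to 0.20). The lower Ifngr2 and Ifnar1 levels of 5xFAD were therefore counted in spots without a plaque mark too.

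The partner chains, kinases and transcription factors of these receptors, encoded elsewhere in the genome, were mostly not higher with the duplication. None of 17 type I interferon ligand genes has a row in the files used here, and neither of the 2 other ligand genes with one, Il22 and Iltifb, averaged 1 CPM. Ifngr1, the ligand-binding partner of Ifngr2 and the only one of 5 partner chains that averaged 5 CPM, had 15.1 CPM in 5xFAD-Dp16, 17.3 in 5xFAD, 12.98 in Dp16 and 14.3 in wild-type. Its ratio was -0.20 (-0.38 to -0.01) in 5xFAD-Dp16 over 5xFAD and -0.14 (-0.34 to 0.05) in Dp16 over wild-type. With the transgenes it was higher, at 0.22 (0.03 to 0.41) in 5xFAD-Dp16 over Dp16 and 0.27 (0.08 to 0.46) in 5xFAD over wild-type. Ifngr1 was thus not higher in the duplication pairs, where Ifngr2 was, and in 5xFAD over wild-type the partners passed counting error in opposite directions.

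Of 3 JAK kinases 2 averaged 5 CPM, and both were lower beyond counting error in both duplication pairs, as were 22.1% of genes. Jak1, which serves all of these receptors, had 54.96 CPM in 5xFAD-Dp16, 63.99 in 5xFAD, 64.1 in Dp16 and 71.8 in wild-type, with ratios of -0.22 in 5xFAD-Dp16 over 5xFAD and -0.16 in Dp16 over wild-type. Jak2, the kinase bound to IFNGR2, had 14.3 CPM in 5xFAD-Dp16, 17.5 in 5xFAD, 16.3 in Dp16 and 19.99 in wild-type, with ratios of -0.29 and -0.30. Both kinases were lower in both transgene pairs too, as were 11.7% of genes. Of 5 STAT and IRF factors 4 averaged 5 CPM, and 0 were higher in both duplication pairs. Stat2 had -0.17 in 5xFAD-Dp16 over 5xFAD and -0.10 in Dp16 over wild-type, and Stat3, the main factor of IL-10, -0.05 and -0.29. Irf9, the DNA-binding partner of STAT2, had 0.39 (0.11 to 0.68) and -0.16 (-0.44 to 0.12). In 5xFAD-Dp16 over Dp16, Irf9 was higher at 0.39 (0.13 to 0.66), beside -0.16 (-0.46 to 0.13) in 5xFAD over wild-type.

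Of 9 regulators 5 averaged 5 CPM, and 0 were higher in both duplication pairs. Ptpn1, a phosphatase of JAK kinases, had 0.01 in 5xFAD-Dp16 over 5xFAD and -0.60 (-0.79 to -0.42) in Dp16 over wild-type. Ptpn2 had -0.001 and -0.05, Ptpn11 -0.04 and -0.27, Pias1, an inhibitor of STAT signalling, -0.21 and -0.19, and Rack1, a scaffold protein, -0.05 and 0.10. Of 18 other cytokine receptor genes 10 averaged 5 CPM, and 0 were higher and 3 lower in both pairs, beside 22.1% of all genes that were lower in both. Of 16 microglia markers at that level, 12 were lower in both pairs, and their part in these values was not tested. The 3 lower ones were Csf1r, the receptor microglia depend on (-0.17 and -0.35), Il6st, the shared chain of the IL-6 family (-0.23 and -0.19), and Il1rap, the accessory chain of the IL-1 receptor (-0.58 and -0.47). Cntfr, a receptor chain for a neurotrophic factor, had -0.02 and -0.23, Lifr, the receptor of leukemia inhibitory factor, 0.04 and -0.39, and Tnfrsf1a, a TNF receptor, -0.30 and 0.39. Without clusters 12 and 13 the Dp16 over wild-type ratio of Tnfrsf1a was 0.15 (-0.11 to 0.41).

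**Figure D5:**
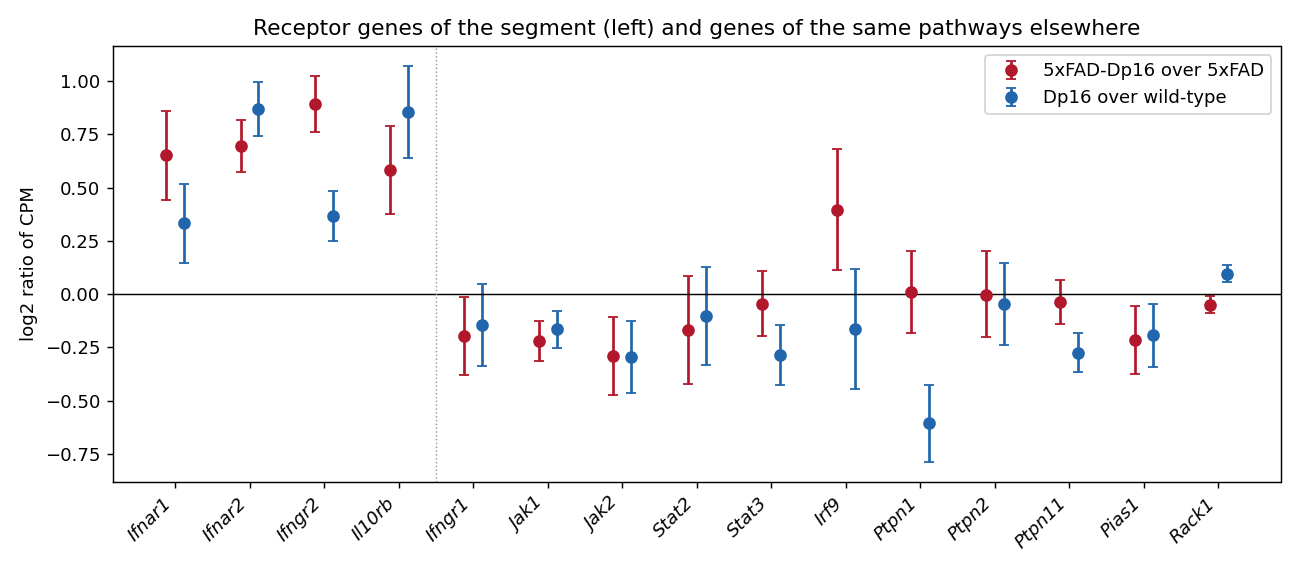
Log2 ratio of CPM (vertical axis) in 5xFAD-Dp16 over 5xFAD and in Dp16 over wild-type for the 4 receptor genes of the segment (left of the dotted line) and for pathway genes elsewhere, with counting intervals. The receptor genes lie between 0.33 and 0.89, and the highest value among the others is Irf9 at 0.39 in 5xFAD-Dp16 over 5xFAD.

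Of 24 type I interferon-stimulated genes 7 averaged 5 CPM. Of the 7, 5 were higher beyond counting error in both duplication pairs, as were 6.18% of all genes. The 7 had medians of 0.36 in 5xFAD-Dp16 over 5xFAD and 0.67 in Dp16 over wild-type. Ifi27l2a had 46.1 CPM in 5xFAD-Dp16, 20 in 5xFAD, 18.002 in Dp16 and 10.2 in wild-type, with ratios of 1.21 (1.06 to 1.35) and 0.83 (0.63 to 1.02). Ifitm3, which restricts virus entry, had 53.4 CPM in 5xFAD-Dp16, 39.2 in 5xFAD, 50.995 in Dp16 and 32.01 in wild-type, with ratios of 0.45 and 0.67. Lgals3bp, a secreted glycoprotein, had 0.28 and 0.82. The 2 that were not higher in both were Ifi27, with 0.03 and 0.95, and Xaf1, with 0.36 and -0.17.

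The values of this group moved with the spots of clusters 12 and 13. Without clusters 12 and 13, 4 of the 7 were higher in both duplication pairs, as were 6.32% of all genes. The medians were then 0.41 in 5xFAD-Dp16 over 5xFAD and 0.27 in Dp16 over wild-type. Ifi27l2a then had 1.36 (1.20 to 1.52) and -0.20 (-0.46 to 0.07), so its Dp16 over wild-type ratio was no longer above 0. Bst2, which was not named by the rule and was chosen after its values were seen, also left the group, with 0.67 (0.50 to 0.84) in Dp16 over wild-type in whole sections and 0.03 (-0.20 to 0.25) without those clusters. Ifi27 joined Ifit3, Ifitm3 and Lgals3bp in it, with 0.14 (0.06 to 0.22) in 5xFAD-Dp16 over 5xFAD and 0.61 (0.51 to 0.70) in Dp16 over wild-type. In the transgene pairs 4 of 7 were higher in both, as were 4.61% of all genes. Without those clusters 6 of 7 were, beside 5.03% of all genes.

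Of 20 interferon gamma-induced genes 6 averaged 5 CPM. Of these, 2 were higher in both duplication pairs, B2m and Psmb10, as were 6.18% of all genes. Without clusters 12 and 13 it was 1, Psmb10, beside 6.32% of all genes. B2m, the light chain of MHC class I, had 308 CPM in 5xFAD-Dp16, 281 in 5xFAD, 178 in Dp16 and 169.6 in wild-type, with ratios of 0.13 in 5xFAD-Dp16 over 5xFAD and 0.07 in Dp16 over wild-type. Psmb10, an immunoproteasome subunit, had 0.20 and 0.22. Igtp, an interferon-induced GTPase, had 0.67 (0.34 to 1.01) and -0.17 (-0.50 to 0.17), and Cd74, the invariant chain of MHC class II, -0.52 (-0.68 to -0.36) and 1.963 (1.72 to 2.21). Of 8 IL-10 response genes 4 averaged 5 CPM, and none of them was higher in either duplication pair. Nfil3 had 0.02 in 5xFAD-Dp16 over 5xFAD and -0.77 in Dp16 over wild-type, Etv3 -0.09 and -0.57, Bcl6 0.13 and -0.41, and Sbno2 -0.46 and -0.18.

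At plaques, 6 of 7 type I interferon-stimulated genes were higher in 5xFAD-Dp16 (median 0.71), as were 10.6% of all genes. In 5xFAD it was 5 of 7 (median 0.60), beside 6.78% of all genes. The 4 receptor genes had medians of 0.39 in 5xFAD-Dp16 and 0.45 in 5xFAD. Ifi27l2a had 1.39 (1.18 to 1.60) in 5xFAD-Dp16 and 0.95 (0.55 to 1.35) in 5xFAD. B2m had 0.94 (0.86 to 1.03) and 1.05 (0.95 to 1.14). Ifngr1 had 0.42 (0.01 to 0.82) and 0.34 (-0.08 to 0.74), values near those of its partner Ifngr2. Among 16 listed segment neighbours, 0 were 25% higher at plaques in 5xFAD-Dp16, where 8.98% of genes were, and 0 in 5xFAD, where 7.32% were. Of the 4 receptor genes 2 passed that size in 5xFAD-Dp16, where Ifngr2 was just below it at 1.2498-fold, and 3 in 5xFAD. The 3 in 5xFAD include Ifnar1, whose interval held 0. Beyond counting error, 2 of the 16 neighbours were higher and 2 lower in 5xFAD-Dp16, where 10.6% and 8.51% of all genes were. In 5xFAD 0 were higher and 1 lower, where 6.78% and 7.75% of all genes were.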

How the data were processed

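Visium sections of 4 mouse hemispheres, 1 for each genotype, gave 10549 spots over 19090 genes. The deposited table holds raw UMI counts per gene and spot, and the deposited annotation adds percent values of mitochondrial UMIs, region, cluster and plaque labels. Space Ranger, Seurat and the mm10 genome are named per the submitters' processing notes, and versions, read filters and the method of labelling regions, clusters and plaques were not given in the sources used here. Of the barcodes, 2879 occur in more than 1 section, since they are array positions. The neighbour column is empty for 10 of 720 plaque spots.

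Counts were summed over spots and scaled to 1000000 UMIs of the section or region (CPM). Ratios are log2, tested genes average at least 5 CPM, and a fold of 25% or 1.5 and intervals of counting error replace a test. Levels have exact Poisson intervals, ratios exact conditional binomial ones and shares Clopper-Pearson ones, each at 95%. These intervals cover counting error only and hold no difference between animals. Region-matched plaque ratios use binomial intervals on effective counts instead of an exact conditional test, because regions are weighted. Regional profiles add 0.5 counts. Scripts were tested on simulated data. Python 3.11.15, numpy 2.4.6, scipy 1.17.1, pandas 2.3.3 and matplotlib 3.10.9 were used, with edgeR 4.0.16 in R 4.3.3 for TMM factors alone, as an alternative scaling.

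Named genes are the 4 receptor genes, every partner chain, kinase, factor and regulator at 5 CPM, from other lists the 3 most abundant and the extremes of each effect, and the 3 genes most like each receptor gene; 1 factor is not reported here. Members and gene lists were chosen with earlier results of these data known. Promoter sequences come from RefSeq for GRCm38.p6, matched by symbol for 3 of the 4 genes. Alternatives were other scalings, spot filters, region weights, folds and plaque matching.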

Additional observations from a re-analysis of the deposited data

Results flagged for a closer look

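For each of the following genes, the ratios of 1 contrast in its 2 pairs of sections passed counting error in opposite directions, and the difference was not tested, since each genotype has 1 section. Ifngr2, the accessory chain of the interferon gamma receptor, had a ratio of 0.24 in 5xFAD-Dp16 over Dp16 and -0.29 in 5xFAD over wild-type. Its segment neighbours Smim11, with 0.20 and -0.13 in those pairs, and Tmem50b, with 0.080 and -0.11, had the same signs. Ptpn1, a phosphatase of JAK kinases, had 0.22 in 5xFAD-Dp16 over Dp16 and -0.40 in 5xFAD over wild-type. The segment neighbours Kcne2, with -0.84 and 1.70, and Clic6, with -1.004 and 1.37, had the other signs in those pairs, as did Ifi27, an interferon-stimulated gene, with -0.10 and 0.82, and Cd74, the invariant chain of MHC class II, with -0.20 and 2.29. Without clusters 12 and 13, Ifi27 had 0.24 and 0.70 and Cd74 0.65 and 2.61, all above 0 beyond counting error, and the ratios of Tmem50b, 0.05 and -0.07, had intervals that held 0. Between sections that differ in the duplication, Cd74 had -0.52 in 5xFAD-Dp16 over 5xFAD and 1.963 in Dp16 over wild-type. Tnfrsf1a, a TNF receptor, had -0.30 and 0.39 in those pairs, and without clusters 12 and 13 the Dp16 over wild-type ratio was 0.15 (-0.11 to 0.41). Rack1, a scaffold protein, had -0.049 and 0.10.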

How the results depend on the processing

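For the 4 receptor genes and their sum, no ratio beyond counting error changed sign under the alternatives run. Among listed response genes, leaving out clusters 12 and 13 turned 3 such ratios: Ifi27l2a in Dp16 over wild-type (0.83, then -0.20), and Ifi27 (-0.10, then 0.24) and Cd74 (-0.20, then 0.65) in 5xFAD-Dp16 over Dp16. Of the alternatives for summed levels and for counts of the 4 receptor genes, 95 gave values inside the counting interval, or counts within 1.5 times, and 19 did not; the cause was not tested. The summed level in Dp16 over wild-type was 0.59, against 0.67 with TMM factors, 0.72 relative to the median of all genes, and 0.50 without clusters 12 and 13, also when the region VL was left out too. With regions weighted alike and without those clusters it was 0.49, and 5xFAD-Dp16 over 5xFAD was 0.84 in place of 0.74. The summed level in 5xFAD-Dp16 over Dp16 was 0.18, against 0.30 with regions weighted alike, 0.26 as a mean over spots, and 0.34 with regions weighted alike without clusters 12 and 13. The double difference of the sum was 0.16, against 0.28, 0.28 and 0.36 under those 3 alternatives. In 5xFAD-Dp16 over Dp16, 2 of the 4 genes were at least 25% higher under each of those 3, and 1 without clusters 12 and 13, against 0. At 1.5-fold 2 of the 4 passed in Dp16 over wild-type and 0 in 5xFAD over wild-type, where 1 was at least 25% higher as a mean over spots. For single genes 250 values stayed inside the counting interval and 30 moved out of it. The alternatives without VL, with regions weighted alike without clusters 12 and 13, and the counts and ratios of interferon-responsive and other listed genes without those clusters were chosen after seeing the data. Single regions hold few UMIs of Ifnar1 and Il10rb, so differences there were mostly not detectable at this depth. No paired analysis was possible because each genotype has 1 section, and for the same reason none could be left out.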
